A study of Mus musculus with 2 samples.

Results

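The genes described here are 5 members of the mouse Hoxb cluster, Hoxb2, Hoxb3, Hoxb4, Hoxb5 and Hoxb9, taken by exact gene symbol from 13697 genes named on the array. Each was read by 1 probe, so all 5 members were found and none has a second probe to check it. Expression was measured in embryoid bodies, balls of differentiating embryonic stem (ES) cells, grown from Elongin A+/+ or Elongin A-/- ES cells. Elongin A is the large subunit of Elongin, a factor that speeds up transcription by RNA polymerase II. Both groups were cultured in DMEM/F12 with serum and N2, received 2 µM retinoic acid and were collected at day 4, with 1 array per genotype. The comparison asks how loss of Elongin A bears on gene levels after this treatment. The labels do not say how the Elongin A allele was disrupted, or how many ES clones or cultures stand behind each array.

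Hox genes encode homeodomain transcription factors that give cells their position along the head-to-tail axis. In each cluster the genes lie in the order in which they are used along that axis: the 3′ genes, with low paralogue numbers, are switched on early and reach into the hindbrain, and the 5′ genes, with high numbers, come on later and further back, in the trunk. Retinoic acid induces the 3′ genes through its nuclear receptors and makes neural cells more posterior, while Polycomb complexes hold Hox genes silent and trithorax complexes keep them active.

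Of the 5 members 1, Hoxb4, matched the RefSeq promoter table of build GRCm38.p6 by symbol. Its promoter is shown with that of Hoxb8, a gene of the cluster that the array also measured, because these are genes from either side of the point where the differences below change sign. Each sequence is the 250 bases before the gene's start on the plus strand, at chr11:96318017-96318266 for Hoxb4 and chr11:96281655-96281904 for Hoxb8, with matches to the searched motifs in capitals.
Hoxb4: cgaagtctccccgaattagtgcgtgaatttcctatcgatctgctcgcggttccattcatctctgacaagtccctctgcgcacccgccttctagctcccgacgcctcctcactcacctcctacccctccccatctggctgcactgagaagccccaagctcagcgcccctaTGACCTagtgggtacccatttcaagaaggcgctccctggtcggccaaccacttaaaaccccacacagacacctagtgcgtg
Hoxb8: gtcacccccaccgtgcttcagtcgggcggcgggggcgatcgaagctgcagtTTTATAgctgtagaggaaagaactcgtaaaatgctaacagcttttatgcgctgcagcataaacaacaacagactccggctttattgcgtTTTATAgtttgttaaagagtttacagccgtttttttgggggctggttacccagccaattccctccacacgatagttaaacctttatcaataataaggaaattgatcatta
The motifs searched on both strands were AGGTCA, the core bound by retinoic acid and other nuclear receptors, TATAAA, and TGATTGAT, a sequence bound by Pbx and Hox proteins together. Hoxb4 holds 1 AGGTCA on the minus strand (TGACCT as printed), 81 to 76 bases before the start. Hoxb8 holds 2 TATAAA matches on the minus strand, 199 to 194 and 110 to 105 bases before the start, and no AGGTCA. No match overlapped another, and TGATTGAT was in neither. Of 32851 promoter windows of this length, 14.0% hold AGGTCA, 12.4% TATAAA and 0.670% TGATTGAT, counting windows with at least 1 match. Holding at least 1 AGGTCA or TATAAA is therefore common. The share of windows with 2 TATAAA matches, as in Hoxb8, was not counted. Hoxb4 has 14 CG dinucleotides in its window and Hoxb8 has 12, against a median of 6 over all windows. Fewer than in Hoxb4 were found in 70.6% of windows, and fewer than in Hoxb8 in 66.5%, so neither count is extreme. A match describes letters only and says nothing of binding in these cells.

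Along the cluster, the differences between the arrays were near 0 at Hoxb2, positive at Hoxb3, Hoxb4 and Hoxb5, and strongly negative at Hoxb9. Of the 5 members 1, Hoxb9, was at least 2-fold lower on the Elongin A-/- array, and 0 were at least 2-fold higher. Over all 9568 measured genes, 5.97% were at least 2-fold lower and 6.76% at least 2-fold higher, with 2039 genes that lie under the floor on 1 array counted at their bound. A gene counts as measured when it lies above the floor, the array median of 1.03 after quantile normalisation, on at least 1 array. The median log2 difference of the members, always Elongin A-/- minus Elongin A+/+, was 0.28, beside -0.02 over all measured genes. With 1 array per genotype there is no replicate check, so no difference here was tested, and effects of genotype, of the ES line, of the culture and of the array cannot be told apart. The number of arrays limits the precision. What can be read from them is how far separate probes of a gene disagree, an SD of 0.43 on the log2 scale over 224 genes. It is called the probe SD below. These probes read the same 2 arrays, so the probe SD holds no spread between cultures, ES clones or repeat arrays. It serves as a scale and is not the error of the comparison.

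**Figure D1:**
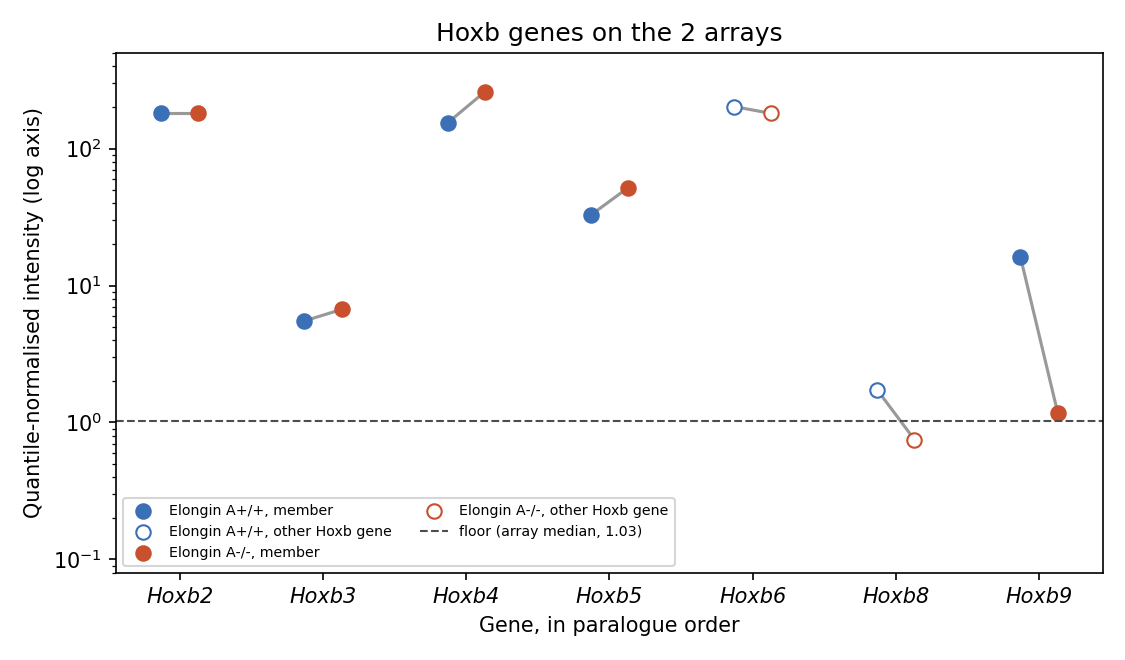
Quantile-normalised intensity (log axis) of the 7 Hoxb genes with a probe of their own, in paralogue order, with 1 point per array: blue for Elongin A+/+, orange for Elongin A-/-, filled for members, open for Hoxb6 and Hoxb8, and a dashed line at the floor of 1.03. Hoxb2 is level at 183, Hoxb4 and Hoxb5 are higher on the Elongin A-/- array, and Hoxb9 has 16.2 on the Elongin A+/+ array and 1.18, next to the floor, on the other.

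Hoxb2, a hindbrain gene of the 3′ end (probe 817276), had a normalised intensity of 183 on both arrays, a log2 difference of 0.00. As deposited, its intensities were 176 on the Elongin A+/+ array and 190 on the Elongin A-/- array, a difference of 0.11. Both normalised values were 178 times the floor, so Hoxb2 was bright on each array and did not separate them.

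Hoxb3, which acts in the hindbrain and in the pharyngeal region (probe 572843), had 5.51 on the Elongin A+/+ array and 6.69 on the Elongin A-/- array. Its log2 difference of 0.28, 1.22-fold higher, is smaller than the probe SD. These intensities were 5.36 and 6.52 times the floor, nearer to it than those of Hoxb2, Hoxb4 and Hoxb5.

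Hoxb4, a gene of the posterior hindbrain that is also known for expanding blood stem cells (probe 855085), had 154 on the Elongin A+/+ array and 260 on the Elongin A-/- array. It was 1.70-fold higher, a log2 difference of 0.76 that lies above the probe SD of 0.43 and below 2-fold. Of the 7529 genes above the floor on both arrays 9.08% had a larger positive difference. Among 235 such genes whose mean log2 level lay within 0.5 of that of Hoxb4, 5 had a larger one. In that window the 5th percentile was -0.57 and the 95th 0.64.

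Hoxb5, which marks the neural tube from the posterior hindbrain backwards (probe 304956), had 32.7 on the Elongin A+/+ array and 51.8 on the Elongin A-/- array. It was 1.58-fold higher, a log2 difference of 0.66. Larger positive differences were found for 11.4% of genes above the floor on both arrays, and for 61 of the 838 such genes within 0.5 of its level. Hoxb4 and Hoxb5 therefore stood together, apart by 0.10 on the log2 scale, which is less than the probe SD.

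Hoxb9, a trunk gene of the 5′ part of the cluster (probe 844029), had 16.2 on the Elongin A+/+ array and 1.18 on the Elongin A-/- array. That is 13.7-fold lower, a log2 difference of -3.78. As deposited, the values were 15.5 and 1.20, a difference of -3.70. Of the 7529 genes above the floor on both arrays 1, Hoxc9, was lower by more. Over all 9568 measured genes, 8 had a lower difference or bound, among them Hoxc8 with a bound of -4.74. Genes under the floor on the Elongin A-/- array whose bound lies above -3.78 cannot be placed against Hoxb9. The level on the Elongin A-/- array was 1.15 times the floor, so the size of the fold is approximate: the log2 difference was -2.96 with a pseudocount at the floor, and -1.64, a bound, when the floor was set to the 75th percentile.

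The change from Hoxb5 to Hoxb9 was much larger than any other step between neighbouring members. From Hoxb2 to Hoxb3 the log2 difference went up by 0.28, from Hoxb3 to Hoxb4 by 0.48, and from Hoxb4 to Hoxb5 it moved by -0.10. From Hoxb5 to Hoxb9 it moved by -4.44, so that the ratio of Hoxb9 to Hoxb5 differed 21.7-fold between the arrays. Such a ratio within an array does not depend on a factor applied to the whole array, and as deposited this step was also -4.44. It shows that Hoxb9 and Hoxb5 differed unequally, not that either stayed the same.

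The 2 other Hoxb genes with a probe of their own fill part of the gap. Hoxb6, which lies next to Hoxb5 (probe 572948), had 203 on the Elongin A+/+ array and 181 on the Elongin A-/- array, a log2 difference of -0.16. Hoxb8, which lies next to Hoxb9 (probe 480279), had 1.73 and 0.749. The latter lies under the floor, so Hoxb8 was at least 1.69-fold lower, a bound of -0.76 on the log2 scale. Where both arrays were above the floor, the differences stood in descending order from Hoxb4 through Hoxb5 and Hoxb6 to Hoxb9. The bound of Hoxb8 lies below the difference of Hoxb6, but does not place Hoxb8 against Hoxb9. The step from Hoxb6 to Hoxb9, both above the floor on each array, was -3.61. Hoxb1, Hoxb7 and Hoxb13 were not analysed here. A further 1 probe that carries several symbols, at least 1 of them starting with Hoxb, was left out.

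In the RefSeq gene order, transcripts of the cluster overlap. Hoxb3 overlaps Hoxb4 and the antisense RNA Hoxb3os, Hoxb3os also overlaps Hoxb2, and Hoxb5os overlaps both Hoxb5 and Hoxb6. The sources used here do not give the positions of the probes. Which of 2 overlapping transcripts a probe of Hoxb2, Hoxb3, Hoxb4 or Hoxb5 read was not tested, while Hoxb9 overlaps no other Hoxb transcript in that table.

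The Hoxb cluster lies on chromosome 11, whose genes as a whole were higher on the Elongin A-/- array. The median log2 difference of its 803 measured genes was 0.41, and 76.8% were higher by any margin. Of them 11.8% were at least 2-fold higher and 2.86% at least 2-fold lower. By median, chromosome 11 came second of 20 chromosomes, after chromosome 8 (0.43), while chromosome 6 was lowest (-0.26) and the others lay between -0.13 and 0.00. The shift of chromosome 11 was 0.38 to 0.51 under 9 settings of scaling, floor and probes.

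Set against chromosome 11, the members read differently. With its median removed, Hoxb4 kept a difference of 0.35 and Hoxb5 of 0.25, both below the probe SD. Hoxb3 turned to -0.13 and Hoxb2 to -0.41, and the median of the 5 members turned from 0.28 to -0.13. Of the 645 genes of chromosome 11 above the floor on both arrays, 22.8% had a larger positive difference than Hoxb4 and 29.9% a larger one than Hoxb5. Hoxb9 moved to -4.19 and had the lowest difference of these 645. The part of the chromosome-wide shift in the values of Hoxb3, Hoxb4 and Hoxb5 was not tested.

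**Figure D2:**
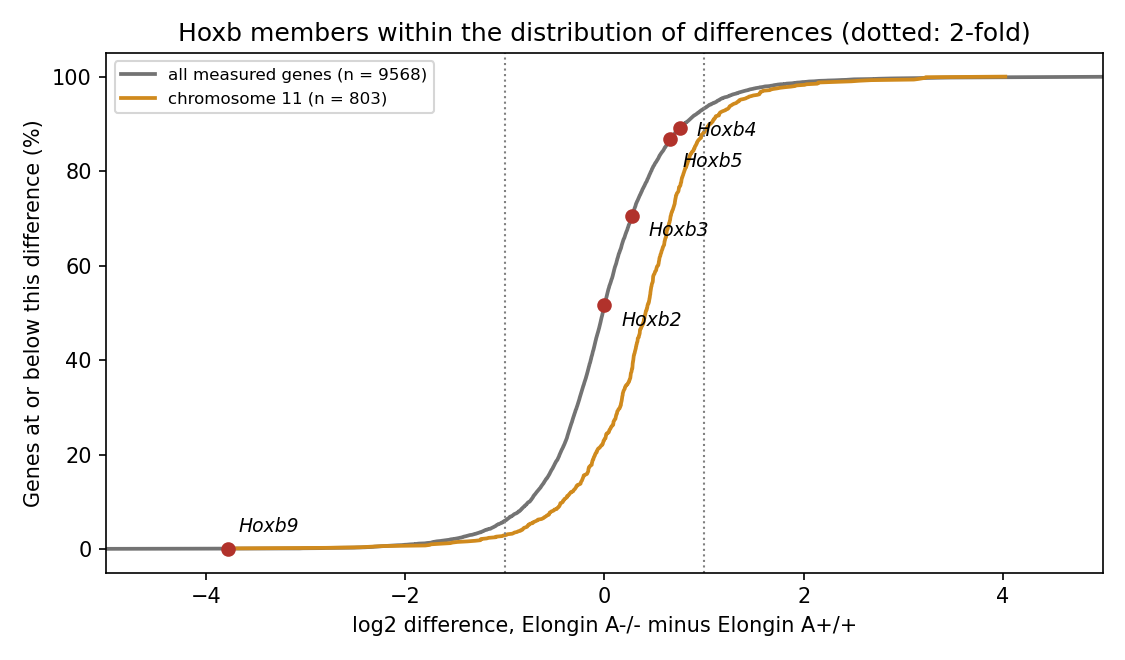
Cumulative share of genes (%) at or below each log2 difference, Elongin A-/- minus Elongin A+/+, for all 9568 measured genes (grey) and the 803 of chromosome 11 (orange), drawn from -5 to 5, with the 5 members as red points on the grey curve and dotted lines at 2-fold. The orange curve lies to the right of the grey one, Hoxb4 (0.76) and Hoxb5 (0.66) sit on the upper slope within 2-fold, and Hoxb9 (-3.78) sits at the far left.

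Genes around the cluster were mostly higher too. Of the 10 genes on each side of the cluster in RefSeq order, 7 have a probe and 6 were measured, of which 5 were higher by any margin, 1 lower and 0 past 2-fold. Their median was 0.55. On the side of Hoxb13 these were Snf8 (0.71), Atp5g1 (0.71) and Ube2z (0.19), which encode a subunit of the ESCRT-II sorting complex, a subunit of ATP synthase and a ubiquitin-conjugating enzyme. On the side of Hoxb1 they were Copz2 (0.67), Nfe2l1 (0.43) and Snx11 (-0.50). Hoxb4 (0.76) lies just above the highest of these values, Hoxb5 (0.66) lies near their upper end, and Hoxb9 lies far below them. These neighbours were named with their values known.

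The same paralogue in the other clusters gives a second view of each member, since paralogues descend from a shared ancestral gene and act in similar positions. Hoxa2 (-0.23) was close to Hoxb2 (0.00). For group 3, Hoxd3 (0.18) was close to Hoxb3 (0.28) and Hoxa3 (-0.78) was lower. For group 4, Hoxc4 (0.36) lay on the same side as Hoxb4 (0.76), while Hoxd4 had 4.89 and 2.49, a difference of -0.97. For group 5, Hoxc5 had 9.25 and 17.0, a difference of 0.88 beside 0.66 for Hoxb5, and Hoxa5 had -0.31. The Hoxa genes lie on chromosome 6, Hoxc on chromosome 15 and Hoxd on chromosome 2, with medians over measured genes of -0.26, -0.02 and -0.05, which differ from the 0.41 of chromosome 11. The part of these chromosome medians in the gaps between paralogues was not tested.

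Group 9 was the lowest with more than 2 measured genes: all 4 of its genes were lower on the Elongin A-/- array, 3 of them by at least 2-fold. Hoxc9 had 87.0 and 1.99, a log2 difference of -5.45, which is 1.67 below that of Hoxb9. Hoxa9 had 3.26 and a value under the floor, a bound of -1.67, and Hoxd9 had a difference of -0.58. The median of group 9, with Hoxa9 at its bound, was -2.72. The medians were -0.12 in group 2 (2 measured genes), 0.18 in group 3, 0.36 in group 4, 0.66 in group 5 and -0.35 in group 6 (3 each, with 1 bound in group 6), and -2.75 in group 8 (2 genes, both bounds). Groups 1, 7 and 10 had 1 measured gene each, at -2.30, -3.05 and a bound of -1.39. The difference of Hoxb9 minus that of Hoxd9 was -3.20, so genes of the same group were far apart too.

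**Figure D3:**
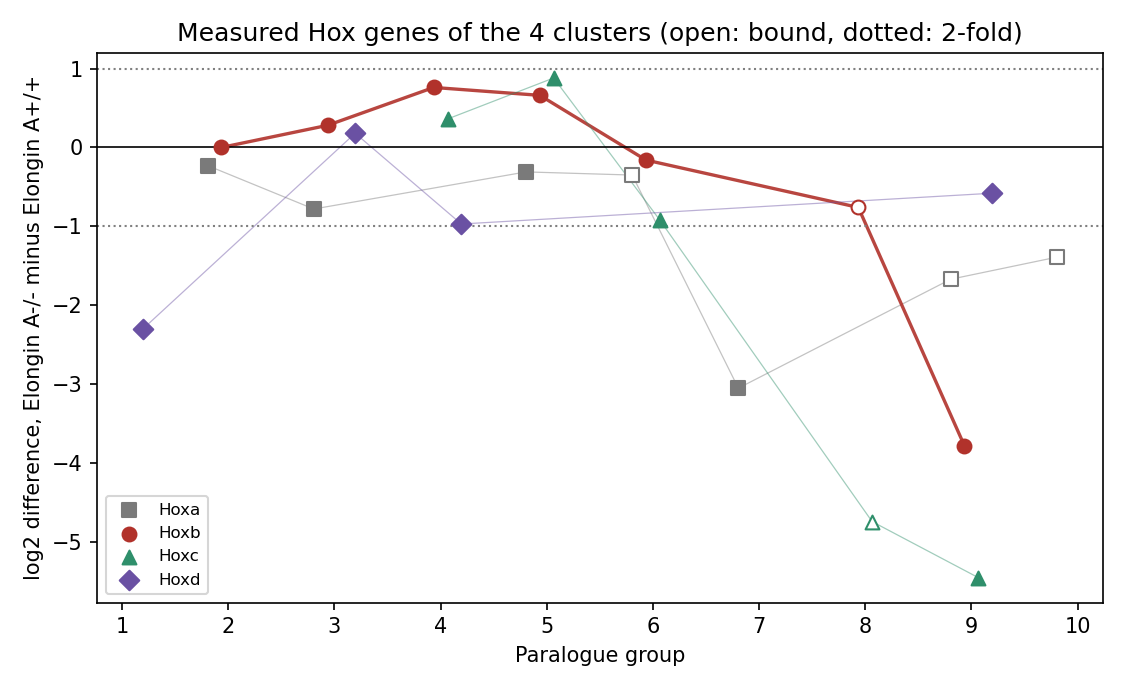
Log2 difference, Elongin A-/- minus Elongin A+/+, of each measured Hox gene against its paralogue group, with a colour and marker per cluster, open markers for genes under the floor on 1 array (bounds), and dotted lines at 2-fold. The Hoxb line (red circles) stays within 2-fold from Hoxb2 (0.00) to Hoxb6 (-0.16) and ends at Hoxb9 (-3.78), and the Hoxc line (green triangles) ends lower, at Hoxc9 (-5.45).

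By cluster, the median of 0.28 for the 5 Hoxb members, or 0.00 for all 7 measured Hoxb genes, was above those of the other clusters. Of 7 measured Hoxa genes, 3 of them bounds, 3 were at least 2-fold lower and 0 higher, with a median of -0.78. Among those lower, Hoxa9 and Hoxa10 are bounds that count as measured only through the Elongin A+/+ array. Under a floor at the 75th percentile, 4 Hoxa genes were measured, 1 was lower and the median was -0.42. Of 5 measured Hoxc genes, 1 of them a bound, 2 were lower and 0 higher (median -0.92). Of 4 measured Hoxd genes 1 was lower and 0 higher (median -0.78). Over all measured genes, 5.97% were at least 2-fold lower and 6.76% higher. Hoxa7 (63.4 and 7.65), Hoxc8 (27.4 and under the floor) and Hoxd1 (11.8 and 2.38) were the others furthest lower in their clusters besides group 9. Hoxd1 is a 3′ gene and so does not follow the order seen in Hoxb. No difference between clusters was tested. The clusters lie on chromosomes with different medians, and with that of chromosome 11 removed the median of the 5 members was -0.13. The measured paralogues differ between the clusters too. The part of either in these cluster medians was not tested.

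Of 9 listed genes of proteins that bind DNA together with Hox factors, 4 were measured, all within 2-fold, with a median of 0.19, and Meis3 and Pknox2 were under the floor on both arrays. Meis1 had 114 and 129, Meis2 had 261 and 259, Pbx3 had 50.0 and 61.2, and Pknox1, close to the floor, had 1.16 and 1.35. Meis and Pbx proteins form complexes with Hox proteins on DNA, and the probes of Meis1 and Meis2 were bright on both arrays.

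Among upstream regulators, Cdx2, which activates Hox genes of the trunk, had 2.91 on the Elongin A+/+ array and lay under the floor on the Elongin A-/- array, at least 2.84-fold lower. It was the 1 gene past 2-fold of 4 measured retinoid receptor and Cdx genes, whose median was -0.06. Of the receptors, Rarb had 3.45 and 2.73, Rxrb had 15.5 and 17.9, and Rarg was under the floor on the Elongin A+/+ array and had 1.98 on the other. The calls of Cdx2 and Rarg depend on the floor and the fold size, and that of Rarg on the scaling too. Rarg, with a bound of 0.94 on the log2 scale, brought the count higher to 1 as deposited, with loess, under a floor at the 25th percentile, with no floor and at 1.5-fold, and the count lower was 0 under a floor at the 75th percentile and at 3-fold. Cdx1 and Cdx4 were under the floor on both arrays.

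Polycomb genes were spread around 0. Of 14 measured subunits 2 were at least 2-fold lower, 0 were higher, and the median was -0.14. Phf1, an accessory subunit of Polycomb repressive complex 2, had 3.09 and 1.10, and Phc3, a subunit of complex 1, had 2.33 and a value under the floor. Ezh2, the methyltransferase of complex 2, had 96.2 and 54.9, a difference of -0.81, and Cbx8 had 2.07 and 3.33. Suz12 (7.21 and 8.93) and Eed (35.0 and 33.6), the core partners of Ezh2, were within 1.5-fold, and were picked with their values known. Under a floor at the 75th percentile, 9 subunits were measured and 0 were 2-fold lower. Of the 14, 0 were 2-fold lower with a pseudocount at the floor, and 0 were lower when counted at 3-fold. The 1.10 of Phf1 on the Elongin A-/- array lies next to the floor of 1.03.

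Markers of other cell types differed between the arrays beside the Hoxb genes. Blood and endothelial markers were at least 2-fold higher on the Elongin A-/- array in 7 of 7 measured cases, 4 of which (Tal1, Hbb-bh1, Tek and Pecam1) are bounds that count as measured only through that array. Cldn5 (1.56 and 60.2), Kdr (2.23 and 54.4) and Lmo2 (4.13 and 16.3) were above the floor on both. The summed intensity of the 7, with values under the floor set to it, was 12.0 and 159 (Cdh5, Tie1 and Gata1 were under the floor on both arrays). Of 6 measured mesoderm markers, 1 of them a bound, 5 were at least 2-fold higher, with sums of 42.2 and 103 (Mesp1, Tbx6 and Msgn1 under the floor). Of 9 measured neural progenitor markers, 2 of them bounds, 3 were at least 2-fold lower and 0 higher. By any margin 5 of these were lower and 4 higher, with sums of 248 and 218 and none under the floor on both. Of 7 measured endoderm markers, 2 of them bounds, 2 were at least 2-fold higher and 1 lower, with sums of 21.9 and 38.5 (Gata4, Apoa1 and Cer1 under the floor). Without Sox7 (1.25 and 14.9) these sums were 20.6 and 23.6. Of 6 measured pluripotency markers, 1 of them a bound, 1 was at least 2-fold lower and 0 higher, with sums of 45.8 and 31.3 (Tdgf1 under the floor). In such bulk samples, fewer cells of a type and less RNA per cell cannot be told apart. The part of cell makeup in the values of Hoxb4, Hoxb5 and Hoxb9 was not tested.

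Eloa, the gene of Elongin A (probe 572511), had 3.87 on the Elongin A+/+ array and 3.57 on the Elongin A-/- array. The sources used here do not say where this probe lies relative to the disrupted part of the gene, so it does not check the labels, and every direction above rests on them.

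From the highest difference to the lowest, the members stood in the order Hoxb4, Hoxb5, Hoxb3, Hoxb2, Hoxb9 under 10 of 10 settings. Several of these could not change the order, so they are not separate checks. The mean over probes, no floor and a floor at the 25th percentile left all 5 values as they were. Centring moves the deposited values of every member by the same amount, and so does removing the chromosome 11 median from the main values. Hoxb9 was lower and Hoxb4 and Hoxb5 higher under all 10 settings that give each gene a value. Hoxb4 ranged from 0.35 to 0.82, Hoxb5 from 0.25 to 0.74 and Hoxb9 from -4.19 to -1.64. Hoxb3 was positive under 9 of them, and Hoxb2 lay between -0.41 and 0.11 with either sign. Counted at 1.5-fold, 2 of the 5 members, Hoxb4 and Hoxb5, were higher, beside 15.8% of all measured genes and 36.4% of those of chromosome 11. At that size 1 member, Hoxb9, was lower, beside 14.8% of all measured genes and 6.85% of those of chromosome 11.

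**Figure D4:**
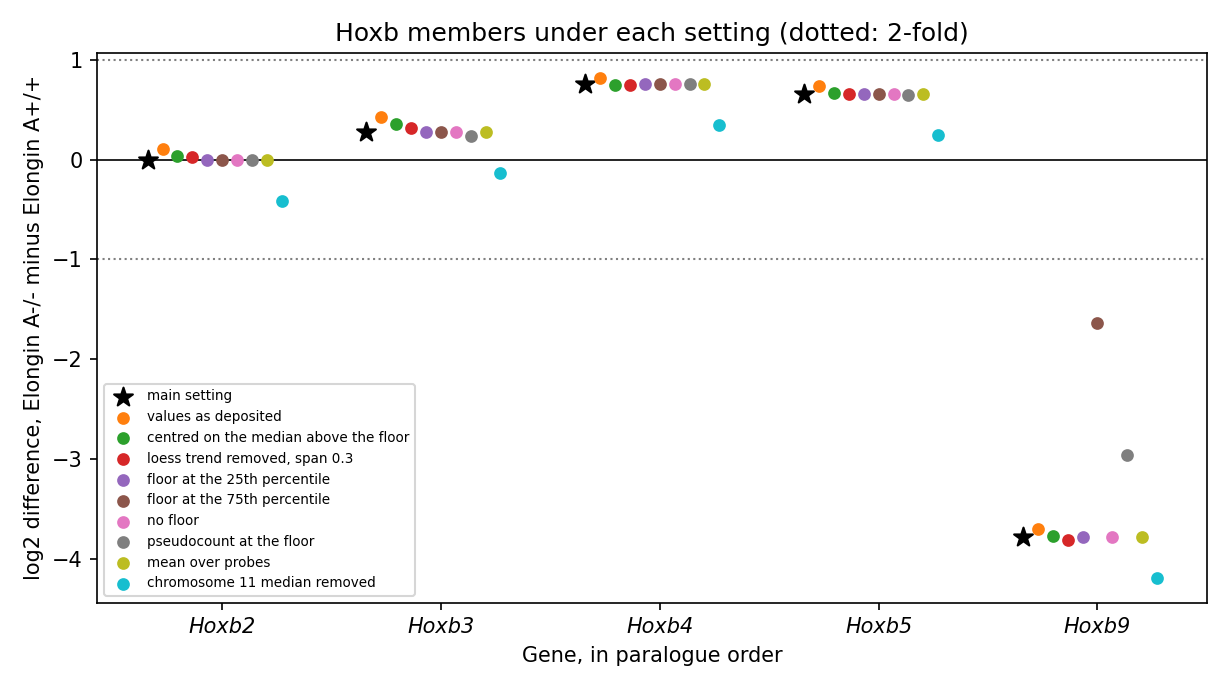
Log2 difference, Elongin A-/- minus Elongin A+/+, of the 5 members under 10 settings (star for the main setting, a coloured point for each other), with dotted lines at 2-fold. Hoxb9 lies below -1 under each, from -4.19 to -1.64, while Hoxb2, Hoxb3, Hoxb4 and Hoxb5 lie within 2-fold under each, and removing the chromosome 11 median lowers every member.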

How the data were processed

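Expression in RNA of 2 embryoid body samples was measured on 1-colour Applied Biosystems arrays with digoxigenin-labelled cRNA, per the labels' protocols. The deposited intensities are linear, with medians of 1.02 and 1.03 over 32440 probes. The sources used here do not say how the authors corrected and scaled them. Scanner values and detection calls were not used here. Probes with exactly 1 symbol in the platform annotation were named (14253, with 243 carrying several and 17944 none). Gene order and chromosomes came from RefSeq GRCm38.p6, matched by gene identifier for 13690 of 13697 genes. Because percentiles of the log2 values differed by up to -0.16, beyond a limit of 0.1, the arrays were quantile normalised, which hides a shift of most genes in 1 direction. Values under the array median were set to it, and the brightest probe stood for a gene. Differences are log2, called at 2-fold with no p-value. The alternatives were other scalings (deposited, centred, loess with span 0.3), a floor at the 25th or the 75th percentile, a pseudocount or no floor, the mean over probes, the chromosome 11 median removed, and 1.5-fold and 3-fold.

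Named genes are all Hoxb genes with a probe of their own, their paralogues, Eloa, and, outside the cell type markers, up to 4 genes per list with the largest absolute difference. The neighbours of the cluster, Suz12, Eed and some genes under the floor on both arrays were named besides. Of the cell type markers, all 7 measured blood and endothelial ones and Sox7 were named. No measured marker of mesoderm, neural progenitors or pluripotency was. Members and lists were chosen with earlier results of these data known. Work was done in Python 3.11.15 with numpy 2.4.6, pandas 2.3.3 and statsmodels 0.14.6. The difference step was tested on simulated data, with changes planted only in probes well above the floor. Levels near the floor, such as that of Hoxb9 on the Elongin A-/- array, were not covered.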

Additional observations from a re-analysis of the deposited data

How the results depend on the processing

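No paired analysis was possible because there is 1 array per genotype, and no array could be left out. A value counts as moved when it shifts by more than the probe SD of 0.43, or a count by more than 1.5 times. Of the members, Hoxb9 moved, to -1.64 under a floor at the 75th percentile and to -2.96 with a pseudocount at the floor, because its level on the Elongin A-/- array lies next to the floor. The members at least 2-fold higher numbered 0, and 2 at 1.5-fold. Removing the chromosome 11 median turned the signs of Hoxb3 (-0.13) and of the members' median (-0.13), by less than the probe SD. Over all measured genes, 647 were 2-fold higher and 571 lower. These counts were 1075 and 980 under a floor at the 25th percentile, 141 and 118 under one at the 75th, 1080 and 982 with no floor, 1512 and 1416 at 1.5-fold, and 213 and 178 at 3-fold. Higher genes made up 53.1% of those past 2-fold, and 64.0% (799 against 449) with the values as deposited. Signal near the floor limits Hoxb9 and Hoxb8 most.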

Other observations

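Genes that mark position in the hindbrain and spinal cord were mostly dim. Of 8 measured genes of this list 1 was at least 2-fold lower on the Elongin A-/- array, 0 were higher, and the median was -0.33, with 4 of the 8 as bounds. The counts were 3 lower and 1 higher with no floor and also under a floor at the 25th percentile, 3 lower at 1.5-fold, and 0 lower under a floor at the 75th percentile, where 2 genes were left with a median of -0.76. The lower one was Wnt3a, a signal of the dorsal midline and tail bud (8.72 and 2.61), which lies on chromosome 11 like the Hoxb genes. Gbx2, a gene of the anterior hindbrain, had 10.5 and 6.11, and En2 (1.94) and Otx2 (1.45), genes of the midbrain and forebrain, were above the floor on the Elongin A+/+ array alone. Egr2, which marks hindbrain segments, was under the floor on both arrays. Of the trithorax and H3K27 demethylase list 4 genes were measured, all within 2-fold, with a median of -0.19: Ash2l (109 and 137), Wdr5 (17.4 and 12.7), Setd1a (3.04 and 2.22) and Kdm6a (28.6 and 29.9).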
